A study of Rattus norvegicus with 10 samples.

Results

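The 10 genes described here encode tau (Mapt), the microtubule-associated proteins Map2 and Map1b, and enzymes that add phosphate to tau or remove it: the kinases Gsk3a, Gsk3b, Cdk5, Fyn and Ttbk1, the Cdk5 activator Cdk5r1 and the phosphatase subunit Ppp2ca. They were taken by gene symbol, and all 10 were present among the 17168 genes of the expression tables. RNA was sequenced from the left hippocampus of 10 male TgF-344AD rats killed at 11 months of age, 5 that ate plain rodent chow (untreated) and 5 that ate chow holding 750 mg per kg of RG2833, which blocks HDAC1 and HDAC3, enzymes that take acetyl groups off histones. Treatment ran for 6 months from an age of 5 months. The design text names ibudilast in its sentence on timing, whereas the title and the treatment labels name RG2833. Both groups are transgenic, so neither shows the level of these genes in a rat without the transgenes, and wild-type animals were not analysed here. TgF344-AD rats carry mutant human amyloid precursor protein and presenilin 1 under a mouse prion promoter and no tau transgene, so that the tau they make comes from the rat's own Mapt gene. The question of the design is what RG2833 does to hippocampal gene expression in these males.

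Tau binds along axonal microtubules and stabilises them, Map2 does so in dendrites and cell bodies, and Map1b is prominent in growing and remodelling neurites. Phosphorylation by kinases such as Gsk3b, Cdk5 and Ttbk1 lowers the affinity of tau for microtubules, the tyrosine kinase Fyn binds and phosphorylates tau, and phosphatase 2A is the main enzyme that removes phosphate from tau in brain. Heavily phosphorylated tau forms the neurofibrillary tangles of Alzheimer's disease. The measurements are of messenger RNA per gene, so they hold neither protein, nor phosphorylation, nor the splice forms of tau.

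Total counts ran from 15118203 to 18533520 per library, and the members were well covered, from 616 counts for Cdk5 in its lowest library to 43243 for Map1b in its highest. The labels do not say whether rats shared a litter or cage. The p-values treat the 10 animals as independent, which could not be checked. Hippocampal markers were present in both groups, but untreated replicate 3 stood apart in 2 of the 3 lists of principal cells. Its mean log2 CPM was 4.48 for the dentate granule cell list, against 5.41 to 6.10 in the other 9 libraries, and 5.66 for the CA3 list, against 5.93 to 6.86. Its CA1 list was at 5.73, within the 5.69 to 6.29 of the other untreated rats. For the striatum list it was 4.28, against 3.31 to 4.13. RG2833 replicates 4 and 5 were next lowest in the CA3 list, at 6.21 and 5.93, with the remaining libraries at 6.72 to 6.86. Their dentate granule cell lists, at 5.44 and 5.52, were not set apart. Their striatum lists were at 3.96 and 4.13, beside 4.05 in untreated replicate 4. The granule cell factor Prox1 was at 32.0 ± 17.7 CPM (counts scaled to a common library size, with TMM factors) among the untreated rats and at 31.3 ± 11.7 CPM among those given RG2833 (mean ± SD, n = 5 each). The CA1 gene Wfs1 was at 223 ± 115 and 240 ± 62.8 CPM. Ribosomal RNA took from 4.07% to 11.4% of the counts of a library. The choroid plexus list had a mean log2 CPM of 7.13 in untreated replicate 2 and 7.28 in RG2833 replicate 1, against 2.78 or less in the other 8 libraries.

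None of the 10 genes passed the comparison of RG2833 with untreated rats in edgeR's quasi-likelihood test, where 0 of 12161 genes (0.00%) had a Benjamini-Hochberg adjusted p under 0.05. At an unadjusted p under 0.05 there were 0 of the 10 members, against 688 of 12161 genes (5.66%). DESeq2 called 7 genes (0.0578%) at an adjusted p under 0.05, none of them a member. At an unadjusted p under 0.05 it had 1 member, Map2, against 6.19% of all genes. Map2 and Ttbk1 were the 2 members at that unadjusted level in limma-voom with sample weights (10.4% of all genes), in edgeR with the replicate number as a block (3.30%) and in edgeR without untreated replicate 3 (14.2%) or RG2833 replicate 1 (7.59%), and Map2 alone without RG2833 replicate 2 (5.30%). The mean was higher in RG2833 rats for 5 members (Map2, Map1b, Gsk3b, Fyn and Ttbk1) and lower for 5 (Mapt, Gsk3a, Cdk5, Cdk5r1 and Ppp2ca), where 46.5% of all genes tested were higher. The median log2 fold change of the members was 0.02, that of all genes -0.01. Values of the groups overlapped for each member, whereas 1.00% of all genes had groups that did not overlap.

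**Figure D1:**
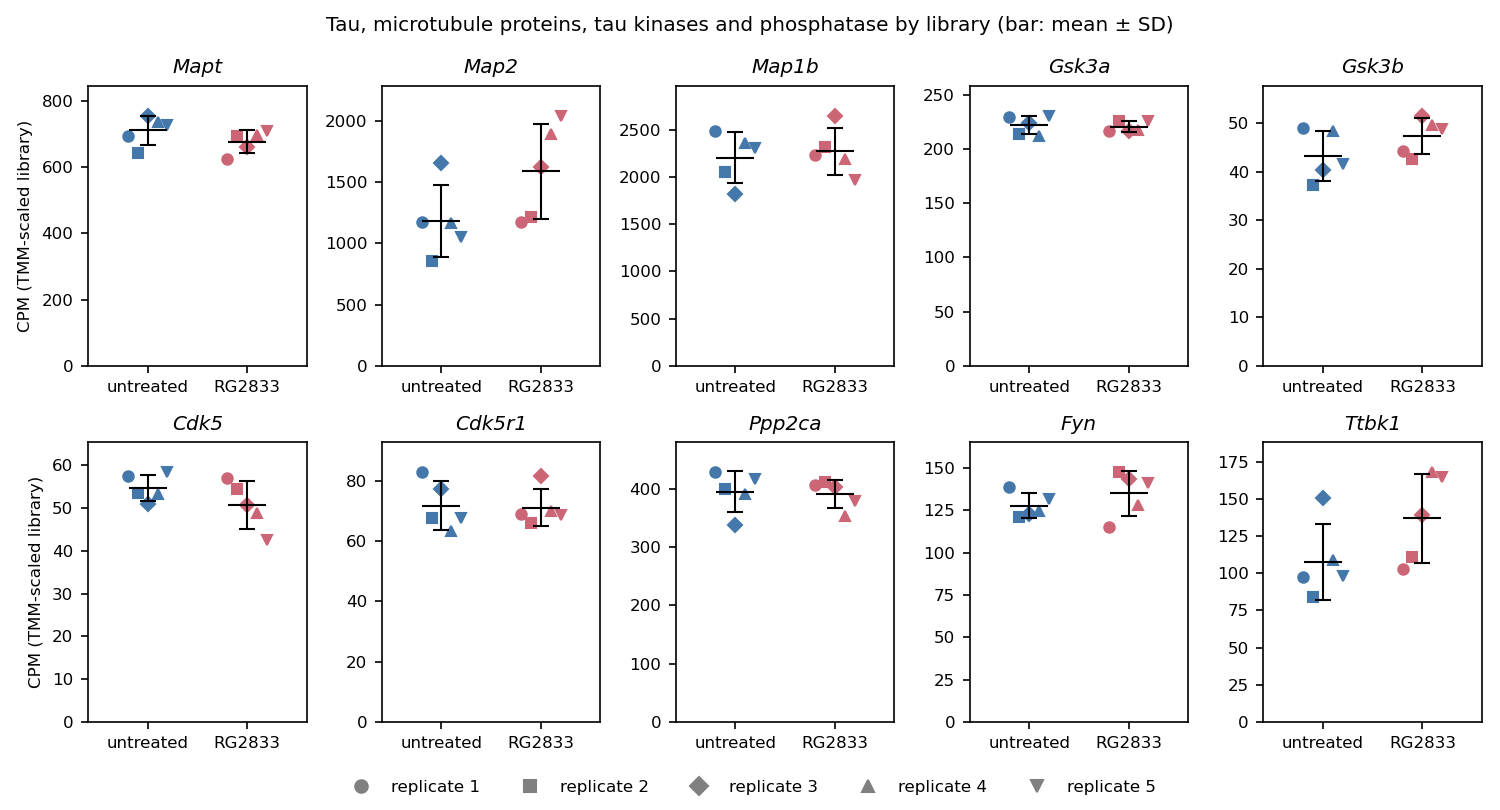
CPM of each of the 10 genes (vertical axes, from 0) in the 5 untreated (blue) and 5 RG2833 (red) libraries; marker shape gives the replicate number, and the horizontal line and whiskers give mean ± SD. Map2 and Ttbk1 vary most, with untreated replicate 3 and RG2833 replicates 3, 4 and 5 at the top of both panels, and Gsk3a lies between 212 and 231 CPM in all 10 libraries.

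The windows at the annotated starts of Map2 and Ttbk1 are shown because these genes had the widest spread of the 10 and moved together from library to library. Whether they are the promoters used in hippocampus was not tested. Each stretch runs from 250 bases before to 50 after the gene's start in RefSeq (build GRCr8), on the plus strand of chromosome 9, at chr9:75346440-75346739 for Map2 and chr9:21990723-21991022 for Ttbk1. Capitals mark GC boxes (GGGCGG or its reverse complement).
Map2: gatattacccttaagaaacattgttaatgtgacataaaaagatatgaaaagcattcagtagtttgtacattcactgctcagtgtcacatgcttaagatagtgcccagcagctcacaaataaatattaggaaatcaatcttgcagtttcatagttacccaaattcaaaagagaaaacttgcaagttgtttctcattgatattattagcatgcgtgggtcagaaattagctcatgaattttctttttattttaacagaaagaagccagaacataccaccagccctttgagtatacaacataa
Ttbk1: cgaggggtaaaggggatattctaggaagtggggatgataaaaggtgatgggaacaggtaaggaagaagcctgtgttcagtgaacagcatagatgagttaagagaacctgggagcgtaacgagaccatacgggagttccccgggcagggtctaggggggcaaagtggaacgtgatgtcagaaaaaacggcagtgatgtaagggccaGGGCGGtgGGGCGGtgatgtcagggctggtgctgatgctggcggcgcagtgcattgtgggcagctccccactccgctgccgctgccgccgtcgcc
The stretch of Ttbk1 is 58.3% G and C and holds 2 GC boxes, which start 45 and 37 bases before the gene's start. The stretch of Map2 is 33.3% G and C and holds 0, so the windows of the pair share little in base composition. Of 33469 RefSeq promoters of this length 33.1% hold a GC box on either strand. Neither window holds a cAMP response element (TGACGTCA, in 1.83% of all promoters), an E-box (CACGTG, 6.42%) or a TATA box (TATAAA, 14.2%), each searched on both strands. RefSeq stretches were matched for 9 of the 10 members, Mapt being the other. Among these, a cAMP response element occurred only in that of Ppp2ca (53 bases before its start), a TATA box only in that of Map1b and an E-box only in that of Gsk3b. These matches are letters in a window and say nothing of binding.

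Mapt, the tau gene, varied little, with a coefficient of variation of 5.95% over the 10 libraries. Its level was 695, 645, 756, 738 and 728 CPM in untreated replicates 1 to 5 and 625, 696, 662, 699 and 710 CPM in RG2833 replicates 1 to 5. Each of the 5 RG2833 rats was under the mean of the untreated ones, but the groups overlapped, since untreated replicates 1 and 2 were lower than RG2833 replicate 5. The means were 712 ± 43.8 CPM and 678 ± 35.0 CPM (SD, n = 5 each), which gave a log2 difference of -0.07 (SE 0.07, edgeR adjusted p = 0.921; two-sided exact permutation p = 0.222). It was -0.04 without RG2833 replicate 1, the lowest library. The 95% interval of the ratio of RG2833 to untreated was 0.856 to 1.06.

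Map2, which spaces and stabilises dendritic microtubules, had the largest fold change of the 10 genes. Untreated replicates 1 to 5 were at 1176, 860, 1657, 1171 and 1052 CPM, and RG2833 replicates 1 to 5 at 1172, 1218, 1625, 1893 and 2044 CPM. RG2833 replicates 3, 4 and 5 and untreated replicate 3 stood above the other 6 libraries, and RG2833 replicates 1, 2 and 3 lay within the range of the untreated rats. The means were 1183 ± 294 and 1590 ± 391 CPM (SD, n = 5 each), which gave a log2 difference of 0.43 (SE 0.20; 95% interval -0.02 to 0.87, edgeR adjusted p = 0.841; unadjusted p = 0.0605, exact permutation p = 0.0794). The value depended on single libraries. RG2833 replicates 4 and 5 were the highest of all 10, while RG2833 replicates 1 and 2 were near the untreated mean of 1183 CPM. Without untreated replicate 3 the log2 fold change was 0.58, with an unadjusted p of 0.00979 and an adjusted p of 0.297 in edgeR. In that fit 14.2% of all genes had an unadjusted p under 0.05. The part of the low dentate and CA3 lists of untreated replicate 3 in the Map2 value was not tested. Nor was that of the low CA3 lists of RG2833 replicates 4 and 5. Over all 22 alternatives the log2 fold change of Map2 ran from 0.32 to 0.58. Across these fits the unadjusted p ran from 0.00979 to 0.148 and the adjusted p from 0.297 to 1.00.

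Map1b, the third microtubule protein, did not follow Map2. It was at 2495, 2051, 1827, 2360 and 2310 CPM in untreated replicates 1 to 5 and at 2238, 2317, 2651, 2197 and 1969 CPM in RG2833 replicates 1 to 5. The lowest library was untreated replicate 3, which was the highest untreated library for Map2, and the highest was RG2833 replicate 3. The log2 fold change was 0.04 (SE 0.11, edgeR adjusted p = 0.980, exact permutation p = 0.667), and its sign changed without untreated replicate 3 (-0.02) or RG2833 replicate 3 (-0.02).

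The paralogous kinases Gsk3a and Gsk3b, which phosphorylate tau at many serine and threonine residues, were close to their untreated levels. Gsk3a was the steadiest member, at 229, 214, 224, 212 and 231 CPM in untreated and 216, 226, 217, 218 and 226 CPM in RG2833 replicates 1 to 5. Its coefficient of variation over the 10 libraries was 2.98%, where the median of the 6910 genes with a mean over 20 CPM was 10.3%. The log2 fold change was -0.01 (SE 0.05, edgeR adjusted p = 0.996), with a 95% interval from -0.12 to 0.10. Gsk3b was at 49.0, 37.3, 40.4, 48.4 and 41.7 CPM in untreated and 44.3, 42.6, 51.6, 49.7 and 48.8 CPM in RG2833 replicates 1 to 5. Its mean was higher in RG2833 by a log2 fold change of 0.13 (SE 0.09, edgeR adjusted p = 0.887, exact permutation p = 0.175), with 4 of 5 RG2833 values above the untreated mean. Weighting the samples in limma-voom, or leaving out untreated replicate 2, gave 0.08.

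Cdk5, a kinase active in neurons after mitosis, was at 57.4, 53.5, 50.9, 53.2 and 58.4 CPM in untreated and 57.1, 54.5, 50.7, 48.9 and 42.6 CPM in RG2833 replicates 1 to 5. RG2833 replicate 5 was the lowest of all, 4 of 5 RG2833 rats were under the mean of the untreated ones, and the log2 fold change was -0.11 (SE 0.08, edgeR adjusted p = 0.901, exact permutation p = 0.206). It was -0.05 without RG2833 replicate 5 and -0.17 without untreated replicate 2 and RG2833 replicate 1, the libraries rich in choroid plexus RNA. Its activator Cdk5r1 was at 82.7, 67.6, 77.2, 63.2 and 67.4 CPM in untreated and 69.1, 65.8, 81.6, 69.9 and 68.7 CPM in RG2833 replicates 1 to 5. The means of Cdk5r1 were almost equal, 71.6 ± 8.05 and 71.0 ± 6.09 CPM (SD, n = 5 each; log2 fold change -0.01, SE 0.09, edgeR adjusted p = 0.996). The second activator, Cdk5r2, ran from 212 to 359 CPM in untreated and from 232 to 342 CPM in RG2833 rats, highest in untreated replicate 3 (log2 fold change 0.07, SE 0.16, edgeR adjusted p = 0.976; -0.02 without RG2833 replicate 5).

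Fyn, the tyrosine kinase that carries tau-dependent signals to the synapse, was at 139, 121, 123, 125 and 132 CPM in untreated and 115, 147, 143, 128 and 141 CPM in RG2833 replicates 1 to 5. The RG2833 values spanned the whole range of the untreated ones (log2 fold change 0.08, SE 0.08, edgeR adjusted p = 0.921, exact permutation p = 0.349), which was 0.13 without RG2833 replicate 1 and 0.04 without RG2833 replicate 2. Within RG2833 the lowest value was that of replicate 1, the library rich in choroid plexus RNA, and within untreated it was that of replicate 2, the other such library.

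Ttbk1, a neuronal kinase of tau, had the second largest fold change. It was at 97.6, 83.8, 151, 109 and 98.1 CPM in untreated and 103, 111, 139, 168 and 164 CPM in RG2833 replicates 1 to 5, with the same 4 libraries highest as for Map2. The means were 108 ± 25.6 and 137 ± 29.9 CPM (SD, n = 5 each), which gave a log2 difference of 0.35 (SE 0.18; 95% interval -0.05 to 0.75, edgeR adjusted p = 0.841, exact permutation p = 0.119). Without untreated replicate 3 it was 0.50, with an unadjusted p of 0.00897 and an adjusted p of 0.292 in edgeR. Over the 22 alternatives it ran from 0.26 to 0.50, and the unadjusted p from 0.00897 to 0.190. Ttbk1 was the only member with expected counts that were not whole, in 6 libraries, so for Ttbk1 the authors' estimate divided reads among features. Its paralogue Ttbk2, which acts on tau and on the assembly of cilia, ran from 26.5 to 36.2 CPM in untreated and from 33.1 to 47.7 CPM in RG2833 rats. The log2 fold change of Ttbk2 was 0.32 (SE 0.12; unadjusted p = 0.0250, edgeR adjusted p = 0.841, exact permutation p = 0.0556).

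Ppp2ca, the alpha form of the catalytic subunit of phosphatase 2A, was at 429, 401, 339, 392 and 417 CPM in untreated and 407, 412, 404, 354 and 379 CPM in RG2833 replicates 1 to 5. It was lowest in untreated replicate 3 and RG2833 replicate 4, which were among the 4 libraries highest in Map2. The log2 fold change was -0.02 (SE 0.08, edgeR adjusted p = 0.995, exact permutation p = 0.841), with a 95% interval from -0.19 to 0.16. The beta form, Ppp2cb, encodes a nearly identical protein. The expected counts of Ppp2ca were whole in all 10 libraries. Ppp2cb had a log2 fold change of 0.07 (SE 0.06, edgeR adjusted p = 0.919), or 0.04 without the libraries rich in choroid plexus RNA.

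**Figure D2:**
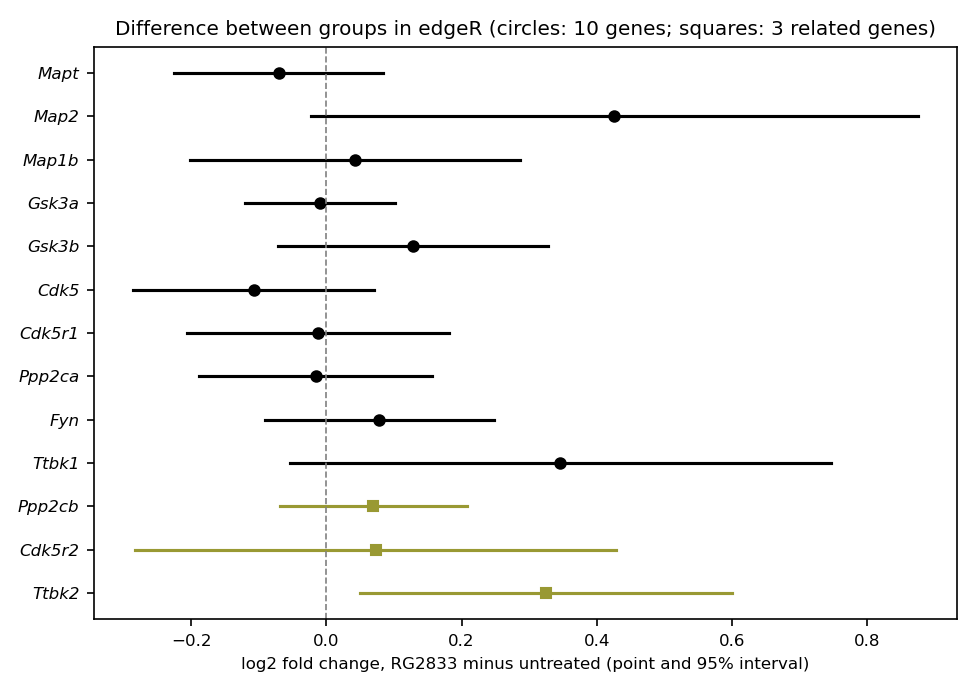
Log2 fold change of RG2833 over untreated (horizontal axis) with its 95% interval from the edgeR fit, for the 10 genes (circles) and 3 related genes (squares). The intervals of all 10 genes include 0, and those of Map2 (-0.02 to 0.87) and Ttbk1 (-0.05 to 0.75) are the widest of the 10; that of Ttbk2 lies above 0 before adjustment over all genes.

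Among the 45 pairs of members, 1 was correlated over the 10 libraries after Benjamini-Hochberg adjustment, that of Map2 and Ttbk1. Their log2 CPM had a Pearson r of 0.984 (permutation p = 1e-05, the smallest that 100000 resamples can give; adjusted p = 0.00045) and a Spearman rho of 0.903 (permutation p = 0.00064; adjusted p = 0.0288). Pearson r was 0.974 without the 2 libraries farthest from the median of Map2 and 0.979 for deviations from the group means, so it did not rest on the difference between group means. A gap of 0.42 on the log2 scale separated the 4 libraries highest in Map2 from the other 6, and the same 4 were highest in Ttbk1. Within the other 6, which were picked by their Map2 values and so span less of its range, r was 0.918 and rho 0.60, given with no test. The pairs next in Pearson r, which did not pass, were Cdk5 with Ttbk1 (r = -0.81, rho = -0.82; permutation p = 0.00255 and 0.00553; adjusted p = 0.0518 and 0.0830) and Map2 with Cdk5 (r = -0.80, rho = -0.75; permutation p = 0.00345 and 0.0168; adjusted p = 0.0518 and 0.189). The r of the latter was -0.60 without RG2833 replicates 4 and 5. Next in Spearman rho was Cdk5 with Ppp2ca (rho = 0.83, permutation p = 0.00444, adjusted p = 0.0829), whose r was 0.60 (permutation p = 0.0671, adjusted p = 0.409). Mapt passed with none of the other 9 members; its largest r was 0.43 with Gsk3a in the positive and -0.44 with Ppp2ca in the negative direction (permutation adjusted p = 0.642 for both). For deviations from the group means, r of Mapt was larger, 0.756 with Ttbk1 and 0.732 with Map2, which is given as a description with no test.

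**Figure D3:**
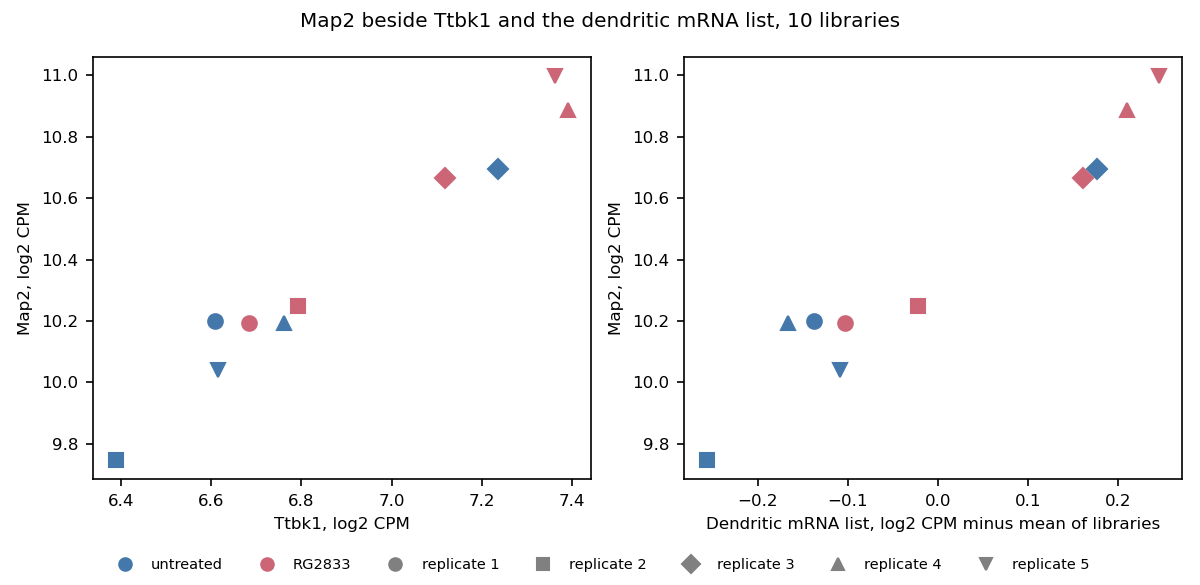
Log2 CPM of Map2 (vertical axes) against that of Ttbk1 (left) and against the dendritic mRNA list as the difference of its mean log2 CPM from the average library (right), 1 point per library, blue for untreated and red for RG2833, with marker shape for the replicate. Untreated replicate 3 lies with RG2833 replicates 3, 4 and 5 at the upper right of both panels, above the other 6 libraries.

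Map2 and Ttbk1 moved with lists of other genes. In the 10 libraries the list of mRNAs found in dendrites, 11 genes such as Camk2a and Ddn, was at a mean log2 CPM of 9.95 to 10.39 in untreated and 10.11 to 10.45 in RG2833 rats. The astrocyte list, 9 genes such as Aqp4 and Slc1a2, was at 8.76 to 9.48 and 8.98 to 9.61. The means of 10 of 11 dendritic genes (median log2 fold change 0.21) and of 9 of 9 astrocyte genes (0.33) were higher in RG2833, where 46.5% of all genes were, beside 0.43 for Map2 and 0.35 for Ttbk1. The same held for 9 of 9 genes of the endothelial and mural list (0.25). In these lists 2 genes, both astrocytic, had an unadjusted p under 0.05, near the 5.66% of all genes, and 0 an adjusted p under 0.05 in edgeR. Pearson r with the neuron list was -0.68 for Map2 and -0.74 for Ttbk1, and with the CA3 list -0.77 and -0.81. With the microglia list it was 0.75 and 0.80, and with the oligodendrocyte precursor list 0.76 and 0.82. None of these passed in both Pearson and Spearman correlation after adjustment. Of 160 relations of a member to a cell type list, 6 did. Map2 with the dendritic list had r = 0.969 and rho = 0.939 (permutation p = 5e-05 and 0.00019; adjusted p = 0.00267 and 0.0101), and r = 0.949 without RG2833 replicates 4 and 5. Ttbk1 with the same list had r = 0.973 and rho = 0.915 (permutation p = 9e-05 and 0.00045; adjusted p = 0.0036 and 0.018), and r = 0.958 without the same libraries. With the astrocyte list, r was 0.949 for Map2 and 0.969 for Ttbk1 and rho 0.879 and 0.988 (permutation adjusted p of r = 0.0016 for both; of rho = 0.0451 and 0.0016), and r was 0.909 and 0.945 without untreated replicate 2 and RG2833 replicate 4.

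The other relations that passed concerned Ppp2ca and Fyn. Ppp2ca followed the neuron list of 12 genes, such as Snap25 and Rbfox3 (r = 0.900, rho = 0.903; permutation adjusted p = 0.0101 and 0.0262; r = 0.900 without untreated replicate 3 and RG2833 replicate 5). Fyn ran against the choroid plexus list. Because 2 libraries stood far above the rest in that list, the value for Fyn is given without them, over 8 libraries, where r was -0.863. In those 8 the list was low, at a mean log2 CPM of -0.64 to 2.78, so this r rests on low values. The neuron list itself was at 8.50 to 9.09 in untreated and 8.54 to 8.97 in RG2833 rats, lowest in untreated replicate 3. Of its 12 genes 1 was higher and 11 lower in RG2833 (median log2 fold change -0.12), where 46.5% of all genes were higher. In the CA3 list 1 was higher and 7 lower of 8 tested genes (-0.10). Both lists had 0 genes at an unadjusted p under 0.05 in edgeR. In bulk tissue, fewer cells of a type and less RNA per cell cannot be told apart, and the part of the cell type lists in the values of Map2, Ttbk1, Ppp2ca and Fyn was not tested.

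The share of ribosomal RNA moved with some of these genes, and for Fyn r was -0.03 and rho 0.0061 (permutation adjusted p = 0.934 and 1.0). Of the 10 members, Ttbk1 passed in both measures against that share (r = 0.847, rho = 0.842; permutation p = 0.00278 and 0.00381; adjusted p = 0.0139 and 0.0381; r = 0.862 without untreated replicates 1 and 3). Map2 had r = 0.781 and rho = 0.673 (permutation adjusted p = 0.0298 and 0.0975), and Ppp2ca r = -0.821 and rho = -0.758 (permutation adjusted p = 0.0139 and 0.0724). The 4 libraries highest in Map2 were also the 4 with the largest ribosomal RNA share. The part of that share in the difference between groups was not tested. With ribosomal RNA taken out of the library sizes the log2 fold change of Map2 was 0.42 and that of Ttbk1 0.34. TMM scaling already rests on the bulk of genes, so this setting could change little and is no test of that share.

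**Figure D4:**
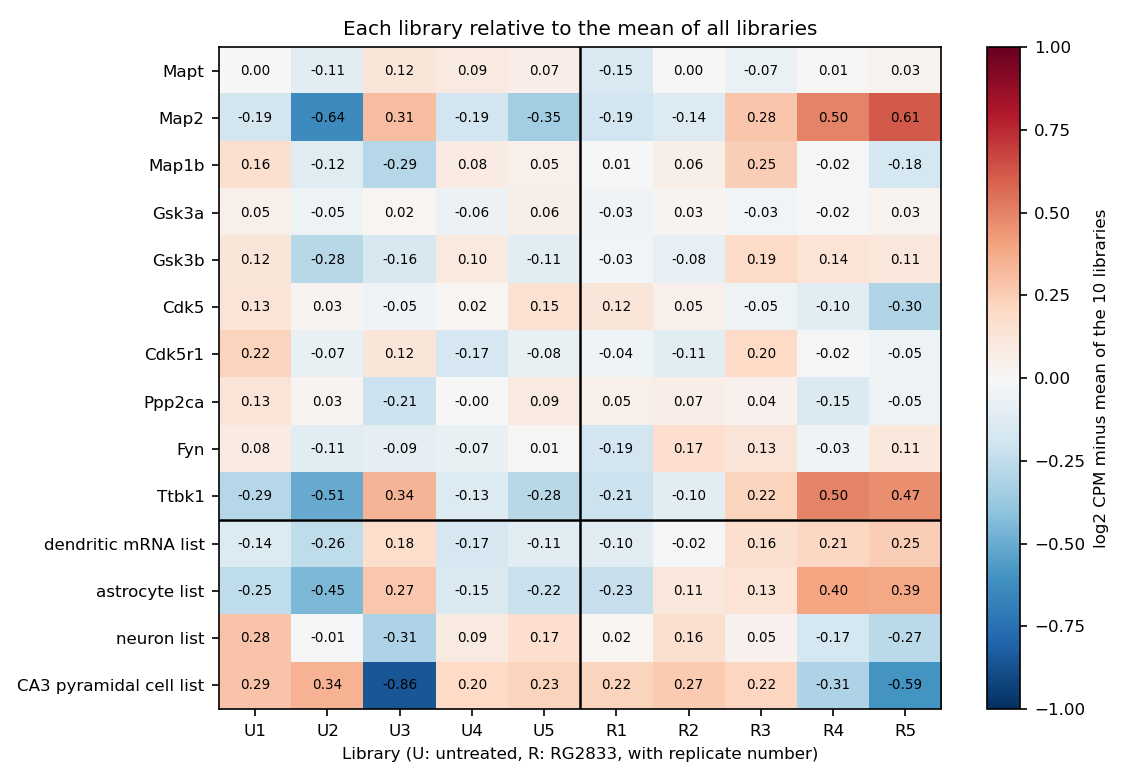
Log2 CPM of each of the 10 genes and the mean of 4 cell type lists in each library (columns; U untreated, R RG2833, with replicate number), as the difference from the mean of the 10 libraries. Map2, Ttbk1 and the dendritic and astrocyte lists are above their mean in U3, R3, R4 and R5 (the astrocyte list in R2 too), and the neuron and CA3 lists are lowest in U3, R4 and R5.

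The genes whose pattern over the 10 libraries was most like each member, by Pearson r of log2 CPM among all genes tested, are given as a description with no test, since each was picked as the best of all. Those nearest to Mapt were Stard4 (r = 0.933), Gapdhs (r = 0.917) and Ngb (r = 0.910). The gene nearest to Map2 was Ttbk1 itself, and the one nearest to Ttbk1 was Ppp1r9b (r = 0.987), the gene of the spine protein spinophilin and a member of the dendritic list. Map1b was nearest to Dcc (r = 0.961), a netrin receptor of growing axons, and Fyn to Gpr3 (r = 0.919). Ppp2ca was nearest to Klhl8 (r = 0.980), Cdk5 to Afg3l2 (r = 0.960), Gsk3b to Akap6 (r = 0.94), Cdk5r1 to Atg2a (r = 0.913) and Gsk3a to Babam1 (r = 0.893).

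Of 172 further genes of the tau and microtubule pathway in 7 lists, 158 were matched in the table and 157 tested. Of these 63 had a higher and 94 a lower mean in RG2833, with a median log2 fold change of -0.02, and 0 passed at an adjusted p under 0.05 in edgeR. At an unadjusted p under 0.05 there were 9 (5.73%), close to the 5.66% of all genes: 4 higher (2.94% of all genes) and 5 lower (2.71%). The adjusted p in edgeR was 0.841 for each of the 9.

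Other microtubule-associated proteins were higher for 8 and lower for 22 of 30 genes (median log2 fold change -0.07). Map1a, which binds microtubules in mature dendrites and axons, averaged 2298 ± 301 CPM without the drug and 2857 ± 349 CPM with it (SD, n = 5 each; log2 fold change 0.31, SE 0.12, exact permutation p = 0.0317). Tppp3, a tubulin polymerization promoting protein, had a log2 fold change of -0.54 (SE 0.17, exact permutation p = 0.0159), the lowest of the list. Map9, named after its values were seen, was the third at an unadjusted p under 0.05, with a log2 fold change of -0.19 (SE 0.07). Tubulins were higher for 3 and lower for 11 of 14 genes, with the lowest list median, -0.13. Tubb2b went against that direction, at 247 ± 31.3 and 314 ± 36.1 CPM (SD, n = 5 each; log2 fold change 0.35, SE 0.11, exact permutation p = 0.0238), while Tubb3, the neuronal beta tubulin, had a log2 fold change of -0.18 (SE 0.09; unadjusted p = 0.0552). Enzymes that modify tubulin or sever microtubules were higher for 7 and lower for 7 of 14 tested genes, with 0 at an unadjusted p under 0.05; the smallest p values were those of the glutamylase subunit Ttll1 (log2 fold change -0.09) and the severing enzyme katanin, Katna1 (-0.24, or -0.14 without untreated replicate 2).

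Other tau kinases were higher for 16 and lower for 15 of 31 genes, with a median log2 fold change of 0.01. Ttbk2, given above, was the 1 gene of that list at an unadjusted p under 0.05, and the tyrosine kinase Src was next (log2 fold change 0.16, SE 0.08; unadjusted p = 0.0646). Phosphatases and their regulators were higher for 10 and lower for 15 of 25 genes (median -0.03). Ppme1, which removes the methyl group from the catalytic subunit of phosphatase 2A, averaged 172 ± 11.1 CPM without the drug and 157 ± 4.92 CPM with it (SD, n = 5 each; log2 fold change -0.13, SE 0.06, exact permutation p = 0.0397). Regulators of Gsk3, Cdk5 and Fyn were higher for 13 and lower for 7 of 20 genes, with the highest list median, 0.07. In that list Akt1, the kinase that inhibits Gsk3 by phosphorylating it, had a log2 fold change of 0.22 (SE 0.10; unadjusted p = 0.0525), and the protease Capn2 one of 0.15 (SE 0.09), or 0.10 without RG2833 replicate 5. Akt1 was at 179 CPM in untreated replicate 3, above the 134 to 144 CPM of the other untreated rats.

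Chaperones, binding partners and splicing or modifying factors of tau were higher for 6 and lower for 17 of 23 genes (median -0.06). In 2 of the 157 pathway genes the groups did not overlap, and both were in this list. Among all genes tested the share was 1.00% (122 of 12161), so 2 of 157 is near the background, and the values of this pair are given as a description. Bag3, a co-chaperone that directs misfolded proteins to autophagy, was at 23.9, 26.4, 21.0, 25.0 and 25.4 CPM in untreated and 27.2, 31.8, 30.3, 35.4 and 27.3 CPM in RG2833 replicates 1 to 5. Each RG2833 rat was above each untreated rat, with a log2 fold change of 0.32 (SE 0.09, edgeR adjusted p = 0.841, exact permutation p = 0.00794, the smallest that 5 against 5 can give). Srsf2, a splicing factor that acts on the alternatively spliced repeat exon of tau, was at 117, 114, 123, 117 and 114 CPM in untreated and 105, 104, 108, 105 and 96.6 CPM in RG2833 replicates 1 to 5. Each RG2833 rat was below each untreated rat, with a log2 fold change of -0.17 (SE 0.05, edgeR adjusted p = 0.841, exact permutation p = 0.00794). Both were picked as the smallest p of their list and neither passed over all genes. Ogt, which adds sugar residues to tau and was named after its values were seen, had a log2 fold change of -0.15 (SE 0.06; unadjusted p = 0.0382).

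**Figure D5:**
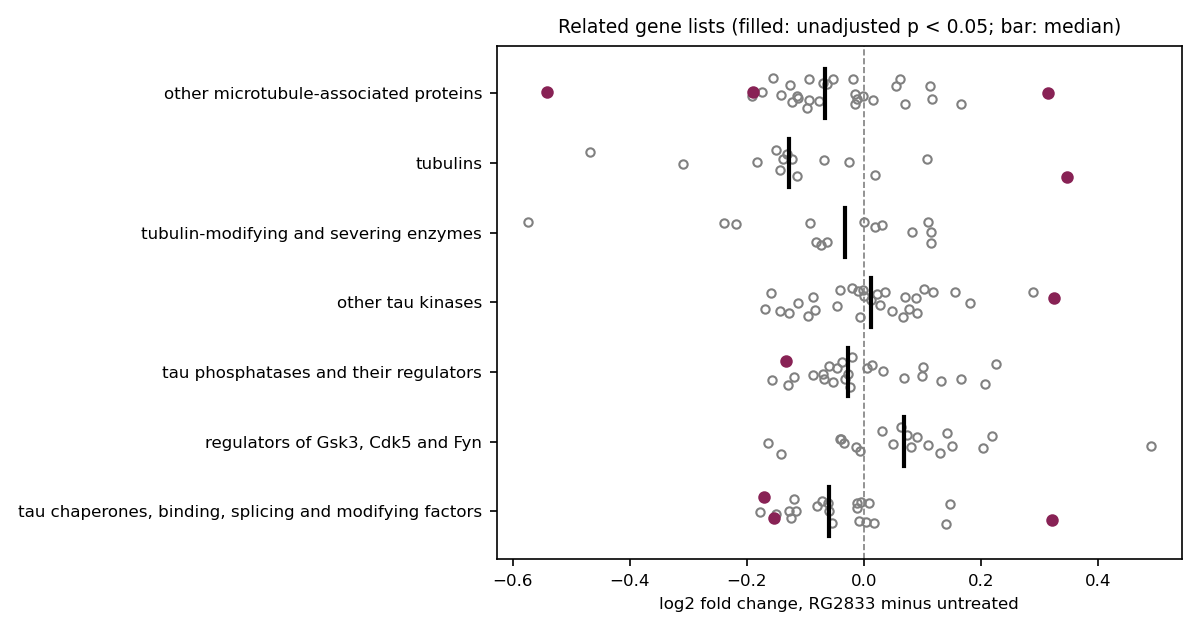
Log2 fold change of RG2833 over untreated (horizontal axis) for the 157 tested genes of 7 pathway lists, 1 circle per gene, filled where the unadjusted p is under 0.05; vertical bars give list medians, and the vertical position within a list carries no value. The medians run from -0.13 for tubulins to 0.07 for regulators of Gsk3, Cdk5 and Fyn, and 9 circles are filled.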

How the data were processed

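Strand-specific mRNA libraries were made from RNeasy-purified RNA, per the labels' protocols. The first table holds the authors' deposited expected counts per gene, of which 11.6% were not whole. The submitters' processing notes name bcl2fastq 2.17, Bowtie2 2.1.0, RSEM 1.2.15, edgeR and build rn6, with no roles, and the annotation is not given in the sources used here. A second table holds the authors' deposited TMM-scaled CPM signal. All of its values above 0 (100%, within 0.02 reads) were whole multiples of 1 step per library, and the recovered reads equalled the rounded counts (100%).

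Expected counts were rounded and fitted with edgeR 4.0.16 (R 4.3.3): filterByExpr with minimum count 10 and total 15 left 12161 of 17168 genes (70.8%), then TMM scaling and robust quasi-likelihood F tests of RG2833 against untreated, with Benjamini-Hochberg adjustment over all genes and a threshold of 0.05. SEs came from the F statistic. CPM used TMM-scaled library sizes, and log2 CPM a prior count of 2. Single values were compared by two-sided exact permutation over 252 regroupings (smallest p 0.00794), correlations by 100000 permutations. Alternatives used DESeq2 1.42.0 and limma 3.58.1. The main edgeR fit was also run on simulated data, and the outcome is not given here.

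The members and lists were chosen with earlier results of these data known. Named genes were the members, Ppp2cb, Cdk5r2 and Ttbk2, the 2 smallest unadjusted p of each pathway list, and the genes most like each member; symbols of the LOC, RGD or AABR kind were left out of the last. One gene that this rule names is not reported here.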

Additional observations from a re-analysis of the deposited data

Results flagged for a closer look

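In 88 sets of 5 values (28 genes and 16 cell type lists in 2 groups), 7 had a highest or lowest library set apart by more than 0.71 of the group's range, where chance gives about 1 in 20, or 4.4. Cdk5r1 was at 81.6 CPM in RG2833 replicate 3, against 65.8 to 69.9 CPM in the other RG2833 rats. Akt1 was at 179 CPM in untreated replicate 3, against 134 to 144 CPM in the other untreated rats. Srsf2 was at 96.6 CPM in RG2833 replicate 5, against 104 to 108 CPM in the other RG2833 rats, which is the side away from the untreated values. The choroid plexus list was at a mean log2 CPM of 7.28 in RG2833 replicate 1, against -0.64 to 1.48 in the other RG2833 rats. Among the untreated rats, replicate 3 was at 5.66 in the CA3 pyramidal cell list, against 6.72 to 6.86, and at 6.45 in the microglia list, against 5.49 to 5.67. Untreated replicate 5 was at 6.29 in the CA1 pyramidal cell list, against 5.69 to 5.83.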

How the results depend on the processing

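Over 22 alternatives, 601 of 616 values for the 28 genes kept their direction and stayed on the same side of the threshold, 15 turned sign and 0 passed. The 15 lay within 0.0447 of 0 on the log2 scale. For Cdk5r1 (-0.01) they were 0.0178 in limma-voom with sample weights, 0.000419 in limma on log2 of the deposited CPM plus 1, 0.0447 without untreated replicate 1, 0.0166 without untreated replicate 3, and 0.0136 and 0.00232 without RG2833 replicates 2 and 5. For Gsk3a they were 0.00104 in limma on the deposited CPM, 0.00240 without untreated replicate 1 and 0.00579 without untreated replicate 5. For Ppp2ca they were 0.0152 and 0.00597 without untreated replicates 1 and 5 and 0.0205 without RG2833 replicate 4. For Map1b they were -0.0183 without untreated replicate 3 and -0.0188 without RG2833 replicate 3, and for Cdk5r2 -0.0240 without RG2833 replicate 5. With a library left out Cdk5r1 ran from -0.0670 to 0.0447, Gsk3a from -0.0250 to 0.00579, Ppp2ca from -0.0660 to 0.0205, Map1b from -0.0188 to 0.0924 and Cdk5r2 from -0.0240 to 0.223. The count of genes at an adjusted p under 0.05 was 7 in DESeq2 and 0 in each other alternative, the leave-one-out fits (0 to 0) included; edgeR on the recovered reads called 0. The unadjusted count ran from 375 without RG2833 replicate 4 to 1732 without untreated replicate 3. Members with an unadjusted p under 0.05 numbered 1 in DESeq2 (Map2, with 6.19% of all genes), 2 in limma-voom with sample weights (Map2 and Ttbk1, with 10.4%), and from 0 to 2 with a library left out: Map2 and Ttbk1 without untreated replicate 3 (14.2%) or RG2833 replicate 1 (7.59%), Map2 without RG2833 replicate 2 (5.30%). With the replicate number as a block it was 2 (Map2 and Ttbk1, with 3.30% of all genes, edgeR adjusted p of 0.999 for both); the numbers share no animal, same-numbered rats had correlations of their deviations across genes from -0.49 to -0.03, and 0 of 5 untreated libraries correlated best with their own number. Without untreated replicate 2 and RG2833 replicate 1, chosen after seeing the data, it was 0. The cause of these shifts was not tested. The pair of Map2 and Ttbk1 was the 1 pair to pass under each alternative for correlations. With 5 rats a group the 95% intervals were -0.02 to 0.87 for Map2 and -0.05 to 0.75 for Ttbk1.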
